A study of Mus musculus with 12 samples.

Results

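Expression of 10 genes of the endoplasmic reticulum stress response was described across mouse liver, lung, heart and thymus. The genes were Hspa5, Hyou1, Dnajb9, Dnajc3, Sdf2l1, Ficd, Pdia4, Creld2, Herpud1 and Xbp1. They were chosen by name, with their tissue levels and their differences from wild type already known from these arrays, so both are given as descriptions without a test. They make up 10 of the 18193 genes and 23 of the 45101 probe sets of the array. The series holds 12 Affymetrix mouse arrays, 1 for each tissue and genotype. The mice were Sv/129, 2 months old and without a stated treatment, and were wild type (WT), p66 knock-out (p66-/-, lacking the p66Shc product of Shc1) or p53 knock-out (p53-/-, lacking the tumour suppressor p53). Each RNA was a pool from 4 mice, taken from the whole freshly dissected organ. A group therefore has 1 value, the spread between mice is not known, and the number of arrays limits the precision. Values are deposited log2 signals, on which a difference of 1 is 2-fold, and a gene is represented by its brightest probe set. Defining markers were high in the labelled organ, with median levels of 13.94 to 14.11 for 15 hepatocyte genes in liver, 13.78 to 13.94 for 9 lung epithelial genes in lung, 13.97 to 14.23 for 10 cardiomyocyte genes in heart and 10.12 to 11.44 for 11 thymocyte genes in thymus. The WT thymus array stood apart, since 15 of 15 salivary gland markers lay between 10.79 and 15.35 there, so thymus is described separately.

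The endoplasmic reticulum folds the proteins that a cell secretes or places in its membranes. When unfolded proteins build up in its lumen, the sensors IRE1 (Ern1), PERK (Eif2ak3) and ATF6 start the unfolded protein response, which raises transcription of chaperones and of the degradation machinery and lowers protein synthesis. Cells that secrete heavily, such as hepatocytes, gland acini and plasma cells, run this programme at a high level without injury. The 10 genes are among its well-known targets. They encode luminal chaperones, the proteins that set the activity of the chaperone BiP, oxidoreductases that form disulfide bonds, a component of reticulum-associated degradation and the transcription factor XBP1.

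Sequences before the transcription start are shown first because ATF6 and XBP1 are known to act through short promoter elements. RefSeq promoters on GRCm38.p6, with 250 bases before and 50 bases after the start, were available for 9 of the 10 genes and for 27025 genes in all, and were searched on both strands. The endoplasmic reticulum stress element, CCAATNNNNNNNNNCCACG, was found in Hspa5, Dnajc3 and Creld2, which is 33.3% of the 9 genes, against 9.46% of 74 other endoplasmic reticulum genes and 0.137% of all genes. The second form of this element, ATTGGNCCACG, was found in Herpud1 alone (11.1%), in 1.35% of the other endoplasmic reticulum genes and in 0.0444% of all. The core of the unfolded protein response element, TGACGTGG, was in 0 of the 9 genes, in 8.11% of the other endoplasmic reticulum genes and in 0.714% of all. The patterns share CCACG or its complement, so their matches can overlap. The 10 genes are known targets of this response, so nothing is read from these shares. The 150 bases just before the start of each gene with a match are given below, 5′ to 3′ on the plus strand with the match in capitals.
Hspa5: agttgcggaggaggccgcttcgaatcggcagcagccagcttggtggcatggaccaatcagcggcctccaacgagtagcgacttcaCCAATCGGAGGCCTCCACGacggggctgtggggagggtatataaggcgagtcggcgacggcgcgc
Dnajc3: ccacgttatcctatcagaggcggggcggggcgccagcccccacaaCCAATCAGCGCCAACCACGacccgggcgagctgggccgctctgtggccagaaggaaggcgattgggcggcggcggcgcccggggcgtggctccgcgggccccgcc
Creld2: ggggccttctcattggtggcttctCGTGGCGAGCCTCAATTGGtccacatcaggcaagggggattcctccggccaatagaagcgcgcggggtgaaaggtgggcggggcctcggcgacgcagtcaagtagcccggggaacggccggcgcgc
Herpud1: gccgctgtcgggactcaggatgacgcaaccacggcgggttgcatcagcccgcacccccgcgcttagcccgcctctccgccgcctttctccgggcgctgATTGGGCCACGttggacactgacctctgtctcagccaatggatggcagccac
The Hspa5 sequence is chr2:34771940-34772089, and its match lies 65 to 47 bases before the start. The Dnajc3 sequence is chr14:118937782-118937931, with the match 105 to 87 bases before the start. The Creld2 sequence is chr15:88819496-88819645 and holds the element on the minus strand, 126 to 108 bases before the start. The Herpud1 sequence is chr8:94386279-94386428, with the shorter element 52 to 42 bases before the start. All 4 genes lie on the plus strand. A match describes these letters and does not show that a factor bound there.

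Outside thymus, the levels of the 10 genes were highest in liver and lowest in heart for most of them. All 3 liver arrays lay above all 3 heart arrays for 9 of the 10 genes, a pattern held by 22% of all genes, and Dnajb9 was the exception. All 3 lung arrays lay above all 3 heart arrays for 4 genes, Hyou1, Dnajc3, Creld2 and Xbp1, against 26% of all genes. All 3 liver arrays lay above all 3 lung arrays for Hyou1, Dnajc3 and Herpud1, which is 3 of 10 against 23.7% of all genes, and for 7 of 10 (25.9% of all genes) when the WT lung array was left out. The opposite orders held for 0 of 10 genes, whereas 26.9% of all genes lay above liver on all lung arrays, 32.5% above liver on all heart arrays and 27% above lung on all heart arrays. Heart was below both other tissues on all arrays for 4 of 10 genes (11.5% of all genes), and liver above both for 3 of 10 (12.2%). The mean over liver arrays exceeded that over heart arrays by a median of 1.17 on the log2 scale across the 10 genes, from 0.17 for Sdf2l1 to 3.23 for Dnajc3, whereas the median over all genes was -0.14. Dnajc3 averaged 10.76 ± 0.18 in liver, 9.96 ± 0.42 in lung and 7.54 ± 0.49 in heart, and Hspa5 12.80 ± 0.38, 12.27 ± 0.62 and 11.43 ± 0.31 (SD over the 3 genotypes, n = 3 arrays), so that for Hspa5 the ranges of liver and lung overlapped. The tissue levels took part in the choice of the genes, so nothing is read from these shares. In whole organs, fewer cells of a secretory type and less RNA of a gene per cell cannot be told apart.

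**Figure D1:**
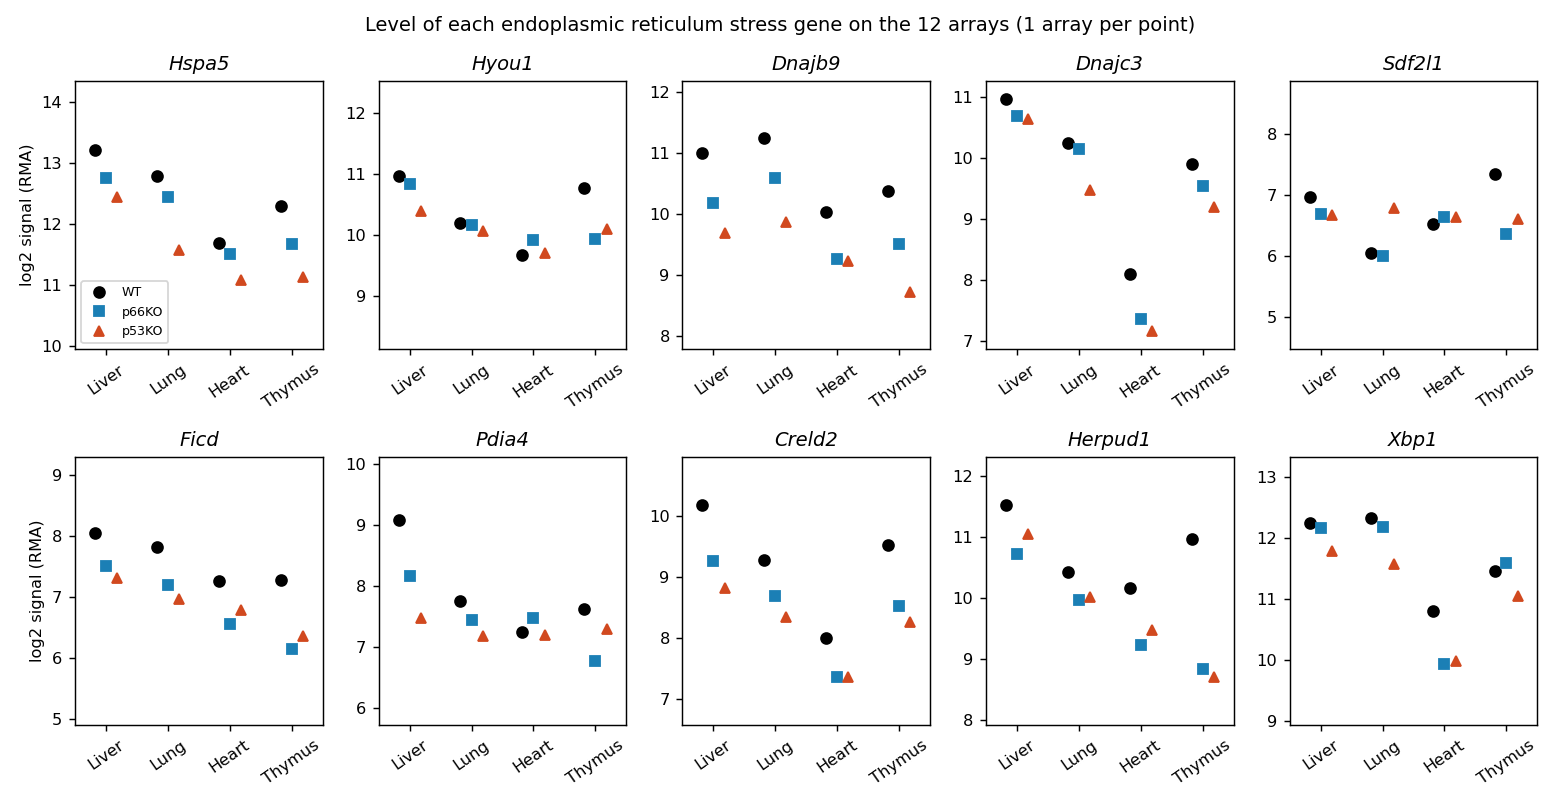
Log2 signal (y axis) of the brightest probe set of each of the 10 genes in liver, lung, heart and thymus (x axis), with 1 point per array for WT (black circles), p66KO (p66-/-, blue squares) and p53KO (p53-/-, red triangles). The y axes differ between genes and do not start at 0. In liver the WT point is above both knock-out points for all 10 genes, and Dnajc3 shows the widest step between liver and heart.

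Both knock-outs were then compared with the WT array of the same tissue, in organs without a stated treatment. With 1 array per group, this describes differences and cannot show that a gene depends on p66Shc or p53. Each knock-out is set against the same WT array, so the 2 comparisons of a tissue share its error. Of the 60 differences in liver, lung and heart, 54 were below 0, although Hspa5 in p66-/- heart and Hyou1 in p53-/- lung turned above 0 with other scalings. In liver, 10 of 10 genes were below WT in p66-/- and 10 of 10 in p53-/-, beside 46.6% and 49.9% of all genes. In lung the counts were 10 and 9 of 10, beside 48.5% and 43.3%, and in heart 7 and 8 of 10, beside 50.4% and 47.3%. The 9097 genes at or above the median signal hold 8 of the 10. Of these brighter genes, 53.9% and 60% were below WT in p66-/- and p53-/- liver. The shares were 47.2% and 57.7% in lung and 69.6% and 64.8% in heart, so the heart counts lie near that share. The median difference of the 10 genes in p66-/- and p53-/- was -0.51 and -0.66 in liver, -0.33 and -0.76 in lung, and -0.67 and -0.62 in heart. These medians correspond to levels 1.42-fold and 1.58-fold lower in liver, 1.26-fold and 1.69-fold lower in lung, and 1.59-fold and 1.54-fold lower in heart. The median over all genes lay between -0.004 and 0.07 in the same comparisons. For the brighter genes it lay between -0.09 and 0.02 in liver and lung, and at -0.23 and -0.15 in p66-/- and p53-/- heart.

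Few of these differences reached 2-fold. In p53-/- liver Pdia4, Creld2 and Dnajb9 were 2-fold or more lower, which is 3 of 10 beside 0.418% of all genes. In p53-/- lung Dnajb9 and Hspa5 were, which is 2 of 10 beside 4.14%. In p66-/- liver and p66-/- lung 0 of 10 were, beside 0.302% and 0.313%, and in p66-/- and p53-/- heart 0 of 10 were, beside 1.67% and 2.08%. None of the 10 genes was 2-fold or more higher in these comparisons, beside 0.0824% and 0.0934% of all genes in p66-/- and p53-/- liver, 0.341% and 0.616% in lung, and 0.181% and 0.115% in heart. These contrasts were known when the genes were chosen, so the counts carry no test and nothing is read from them.

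**Figure D2:**
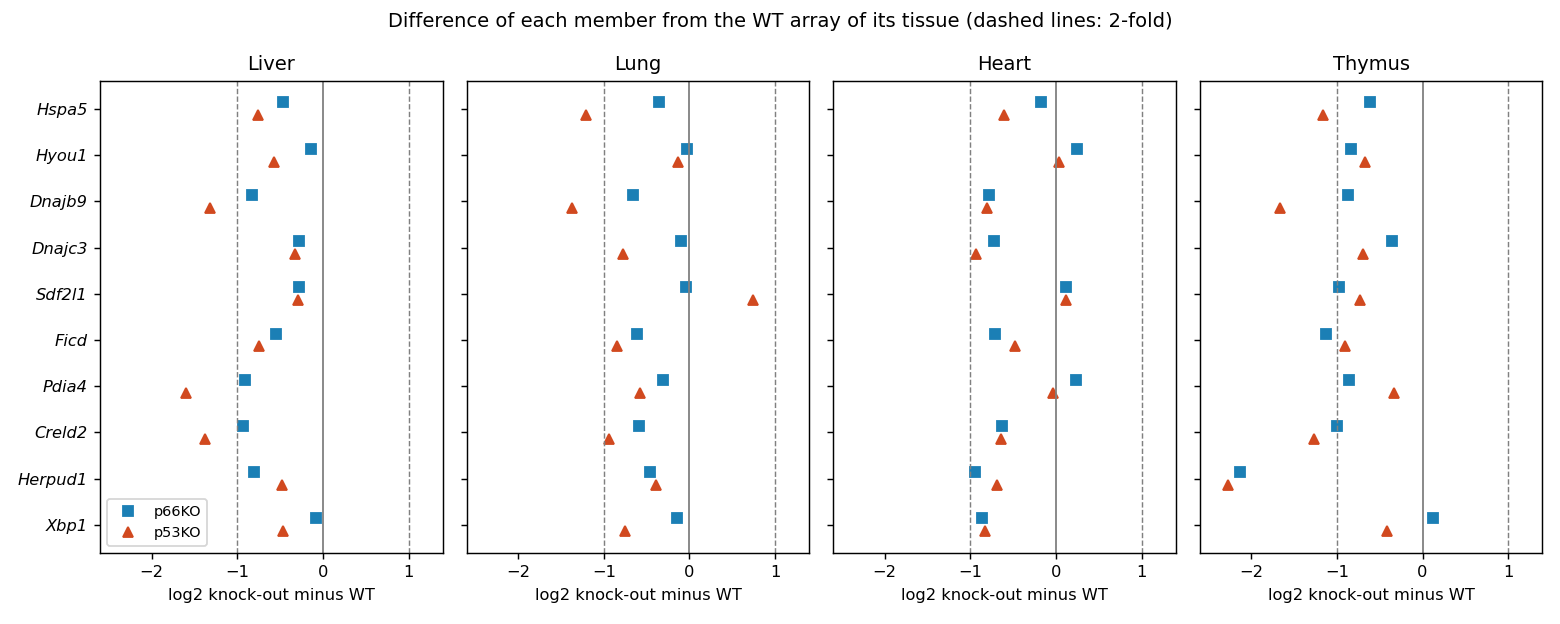
Log2 knock-out minus WT (x axis) of the brightest probe set of each gene (y axis) in each tissue, for p66KO (blue squares) and p53KO (red triangles), 1 array against 1. The solid line is 0 and the dashed lines are 2-fold. Of 60 points in the liver, lung and heart panels 54 lie left of 0, of which Hspa5 in p66KO heart and Hyou1 in p53KO lung move right of 0 with other scalings, and Herpud1 in thymus lies farthest left at -2.13 and -2.27.

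Among the luminal chaperones, Hspa5 was below WT on all 6 knock-out arrays outside thymus, of which p66-/- heart depended on the scaling, whereas Hyou1 stood within 0.25 of WT in lung and heart. Hspa5 encodes BiP, the most abundant luminal chaperone, which also holds the sensors inactive. It stood at 13.21, 12.75 and 12.45 on the WT, p66-/- and p53-/- liver arrays, at 12.79, 12.44 and 11.58 in lung, and at 11.69, 11.52 and 11.08 in heart. In each tissue the WT array was highest and the p53-/- array lowest, although the p66-/- heart difference went from -0.17 to 0.22 or 0.31 when quantile normalization was repeated or cyclic loess was used. The differences from WT in p66-/- and p53-/- were -0.46 and -0.76 in liver, -0.35 and -1.21 in lung, and -0.17 and -0.60 in heart. Hyou1 encodes a large chaperone that exchanges the nucleotide of BiP. Its signal was 10.98, 10.84 and 10.40 in liver, 10.21, 10.18 and 10.07 in lung, and 9.68, 9.93 and 9.72 in heart, in the same order of genotypes. Only in liver was a knock-out below WT by more than 0.14, with -0.58 in p53-/-, and in heart both knock-out values were above WT, that of p53-/- by 0.04, which became -0.06 with arrays centred on their medians.

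The genes of proteins that set BiP activity differed from WT to unequal degrees. Dnajb9, Dnajc3 (by its brightest probe set, not by the other 4) and Ficd were below WT on all 6 knock-out arrays outside thymus, and Sdf2l1 on 3. Dnajb9 encodes ERdj4, a J-domain cochaperone that brings BiP to IRE1 and represses it. It stood at 11.002, 10.18 and 9.68 in WT, p66-/- and p53-/- liver, at 11.24, 10.59 and 9.87 in lung, and at 10.04, 9.26 and 9.24 in heart. Its differences from WT, -0.83 and -1.32 in liver, -0.65 and -1.38 in lung and -0.78 and -0.80 in heart, were all larger than 0.6 in size with the deposited scaling. Those in heart became -0.43 and -0.52 with repeated quantile normalization and -0.44 and -0.55 with cyclic loess. Dnajc3 encodes P58IPK, a J-domain cochaperone also known as an inhibitor of PERK. Its levels were 10.96, 10.68 and 10.64 in liver, 10.25, 10.15 and 9.47 in lung, and 8.09, 7.36 and 7.15 in heart. It differed from WT by -0.28 and -0.33 in liver and by -0.73 and -0.94 in heart, while in lung the p66-/- value was -0.10 and the p53-/- value -0.77.

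Ficd encodes the enzyme that attaches AMP to BiP and removes it, and so switches BiP off and on. It stood at 8.04, 7.496 and 7.30 in WT, p66-/- and p53-/- liver, at 7.81, 7.20 and 6.96 in lung, and at 7.26, 6.55 and 6.78 in heart. The differences lay between -0.85 in p53-/- lung and -0.48 in p53-/- heart. Sdf2l1 encodes a luminal partner of J-domain proteins that delays the clumping of misfolded proteins. Its signal was 6.96, 6.68 and 6.67 in liver, 6.04, 5.999 and 6.78 in lung, and 6.52, 6.64 and 6.63 in heart. Apart from p53-/- lung, where it stood 0.74 above WT, its differences were between -0.30 and 0.12, and the values above WT in heart, 0.12 in both knock-outs, became -0.03 and -0.04 with cyclic loess. The mean signals of Sdf2l1 and Ficd were below that of the median gene, unlike those of the other 8 genes.

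Among the oxidoreductases and related proteins, the differences outside thymus were largest in liver. Pdia4 encodes ERp72, a protein disulfide isomerase. It stood at 9.08, 8.17 and 7.49 in WT, p66-/- and p53-/- liver, differences of -0.91 and -1.60, and the latter, 3.02-fold lower, was the largest of any of the 10 genes in liver. In lung it stood at 7.77, 7.45 and 7.19, and in heart at 7.25, 7.48 and 7.21, so that in heart its signal was 0.23 above WT in p66-/- and differed from it by -0.04 in p53-/-. Creld2 encodes a cysteine-rich protein of the reticulum that is known as a strong responder to unfolded proteins. Its levels were 10.19, 9.26 and 8.82 in liver, 9.28, 8.69 and 8.34 in lung, and 8.003, 7.37 and 7.36 in heart. The order WT, p66-/-, p53-/- held in each of these tissues, although the knock-outs differed by only 0.01 in heart, and the differences from WT ran from -0.59 in p66-/- lung to -1.37 in p53-/- liver.

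Herpud1 and Xbp1, of degradation and of transcription, had their largest differences outside thymus in heart with the deposited scaling. With repeated quantile normalization and cyclic loess, that of Herpud1 was in p66-/- liver (-0.67 and -0.76). That of Xbp1 was then in p53-/- lung (-0.55 and -0.57). Herpud1 encodes a ubiquitin-like membrane protein that helps to assemble the degradation complex. It stood at 11.53, 10.73 and 11.05 in WT, p66-/- and p53-/- liver, at 10.42, 9.96 and 10.03 in lung, and at 10.17, 9.23 and 9.48 in heart. In contrast to Hspa5, Dnajb9 and Creld2, its lower knock-out value was that of p66-/- in all of these tissues, with -0.81, -0.46 and -0.95 against -0.48, -0.40 and -0.69 in p53-/-. Xbp1 encodes the factor whose mRNA is cut and rejoined by IRE1, and the arrays do not separate its spliced from its unspliced form. Its signal was 12.25, 12.16 and 11.78 in liver, 12.32, 12.18 and 11.58 in lung, and 10.81, 9.94 and 9.98 in heart. In p66-/- the difference was -0.08 in liver and -0.15 in lung but -0.86 in heart, and in p53-/- it was -0.47, -0.75 and -0.83.

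Other transcripts moved with these differences, and they differed by tissue. In liver the 15 hepatocyte markers had median differences of -0.09 and -0.17 in p66-/- and p53-/-, with 0 at 2-fold, and salivary gland markers of 0.07 and 0.16. Lung epithelial markers had medians of 0.12 and 0.12, but Scgb1a1, the club cell secretory protein of the airways, stood at 4.63 on the WT liver array and at 9.11 and 8.91 on the p66-/- and p53-/- liver arrays, and was 1 of 9 such markers at least 2-fold higher there. The 18S ribosomal RNA control signal was 6.61, 6.07 and 6.45 on the WT, p66-/- and p53-/- liver arrays. In lung, liver transcripts were present on the WT array, where the 15 hepatocyte markers had a median level of 10.78 against 9.61 in p66-/- and 7.06 in p53-/-, summed log2 levels of 158.1, 144.3 and 107.5, with 5 and 14 of 15 2-fold or more lower. Alb, the main serum protein of the liver, differed from WT by -0.83 and -4.35 there. The p53-/- lung array also had an 18S signal of 9.79, against 5.52 in WT and 5.94 in p66-/-, and the signal of the Gapdh 3′ probes less that of the 5′ probes, a measure of RNA integrity, was 2.29, 1.32 and 0.66 in WT, p66-/- and p53-/- lung. Plasma and B cell markers went the other way in p66-/- lung, with a median difference of 1.42 and 6 of 9 at least 2-fold higher. Jchain was among them at 2.55, and the median stood at 0.15 in p53-/- lung. Thymocyte markers were above WT too, with medians of 0.64 in p66-/- and 0.41 in p53-/- lung. Of these 11 markers, 5 and 1 were at least 2-fold higher, and Rag1 stood 3.35 above WT in p66-/- lung. The part of liver RNA, of plasma and B cells, of thymocyte RNA and of RNA quality in the lung differences was not tested.

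In heart, 15 salivary gland markers had a median level of 7.32 on the WT array, 5.83 in p66-/- and 5.43 in p53-/-, with 7 and 11 of 15 at least 2-fold lower. Scgb1b27 and Car6, secreted salivary proteins, stood at 11.002 and 9.96 on the WT heart array, against 7.18 and 6.33 in p66-/- and 7.25 and 5.90 in p53-/-. Hepatocyte markers had median differences of -0.48 and -1.17 in heart, and plasma and B cell markers of -0.67 and -0.47. The standard deviation of all log2 values was 1.88 on the WT heart array and 1.73 and 1.76 on the knock-out arrays, and among the 9097 genes at or above the median signal 69.6% and 64.8% were below WT there. Salivary and hepatocyte RNA thus moved with the gene differences in heart, and their part in them was not tested.

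Heat shock genes, which encode chaperones of the cytosol and mitochondria, were lower on the same arrays. The median difference of 14 such genes in p66-/- and p53-/- was -0.44 and -0.74 in liver, -0.50 and -1.17 in lung, and -0.77 and -1.01 in heart, with 3 and 6, 5 and 8, and 6 and 7 of 14 at least 2-fold lower. Hspa8, the constitutive cytosolic chaperone, differed from WT by -0.33 and -0.61 in liver. In thymus the median of these genes was 0.67 in p66-/- and 0.37 in p53-/-. These medians became 0.003 and -0.17 with repeated quantile normalization, and 0.14 and -0.05 with cyclic loess. The 10 endoplasmic reticulum stress genes had medians of -0.87 and -0.82 there.

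**Figure D3:**
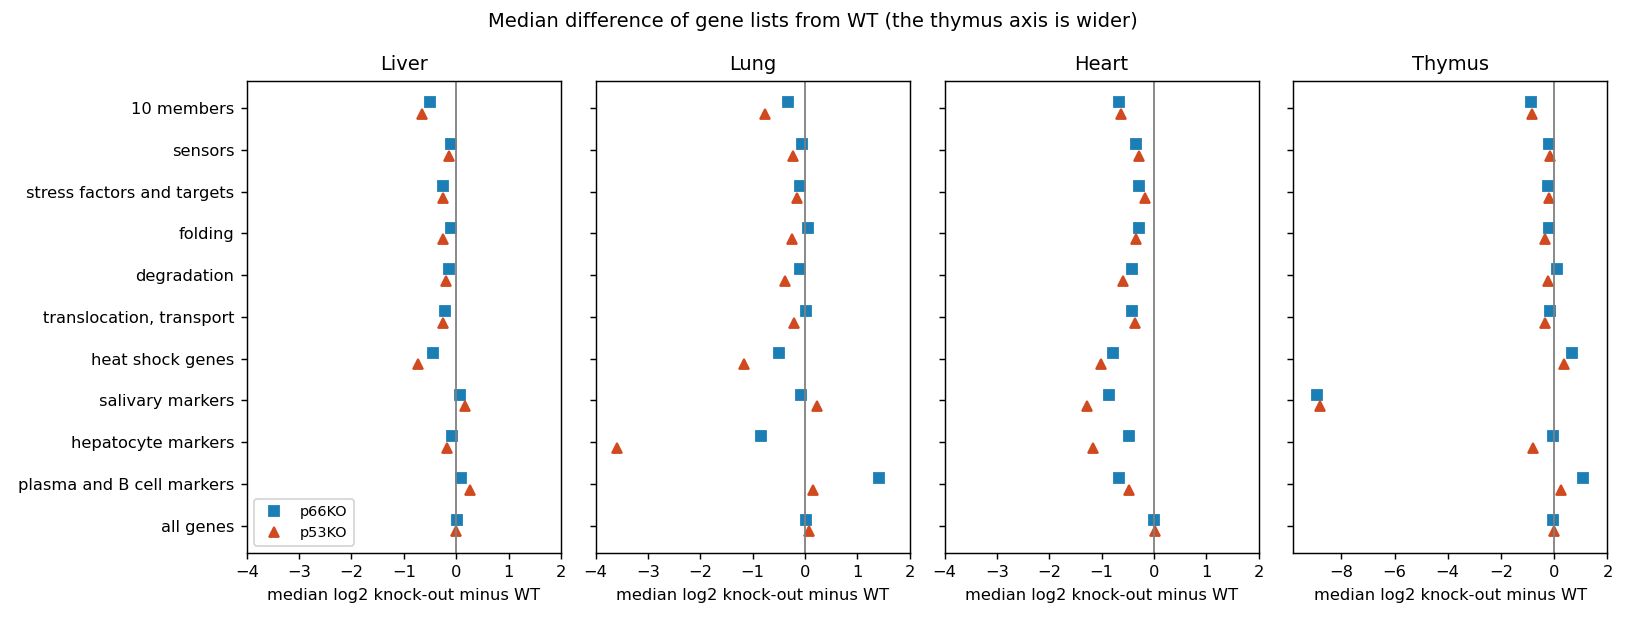
Median log2 knock-out minus WT (x axis) of the 10 endoplasmic reticulum stress genes, 5 lists of other endoplasmic reticulum genes, heat shock genes, 3 lists of cell markers and all 18193 genes (y axis), in p66KO (blue squares) and p53KO (red triangles), 1 array against 1 and without error bars. The thymus axis is wider than the others. Salivary markers lie at -8.92 and -8.80 in thymus and hepatocyte markers at -3.60 in p53KO lung, while the 10 genes lie between -0.33 and -0.87 in all panels.

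In thymus, most of the 10 genes were also below WT and Herpud1 showed the largest difference of all, but the WT array held salivary gland RNA. The 15 salivary gland markers had a median level of 14.31 on the WT thymus array, 5.38 in p66-/- and 5.27 in p53-/-. Their summed log2 levels were 206.8, 80.8 and 79.7, and 15 of 15 were at least 2-fold lower in each knock-out. On the knock-out arrays 14 and 15 of the 15 markers were below the median gene. Cardiomyocyte markers had median levels of 8.68, 8.14 and 6.29 on the WT, p66-/- and p53-/- thymus arrays. The lung marker Scgb1a1 stood at 11.87, 13.22 and 7.13 there. Thymocyte markers had median differences of 1.28 and 1.46 and plasma and B cell markers of 1.10 and 0.26, both above WT, and the 18S signal was 10.86, 5.97 and 10.30 on the WT, p66-/- and p53-/- arrays. Salivary acini are secretory cells with abundant reticulum, so that for these genes the content of the WT array and the genotype cannot be told apart in thymus.

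Herpud1 stood at 10.98 on the WT thymus array and at 8.84 and 8.71 on the p66-/- and p53-/- arrays, which is 4.39-fold and 4.83-fold lower. Its WT thymus level lay above its lung and heart levels, and its knock-out thymus levels lay below all of them. Dnajb9 stood at 10.38, 9.51 and 8.72, Hspa5 at 12.29, 11.68 and 11.14, and Creld2 at 9.52, 8.52 and 8.26. Of the remaining genes, Ficd differed from WT by -1.13 and -0.91, Sdf2l1 by -0.98 and -0.73, Hyou1 by -0.84 and -0.67, Pdia4 by -0.86 and -0.33, and Dnajc3 by -0.36 and -0.69. Sdf2l1 and Hyou1, which were close to WT in heart, were thus at least 0.67 below it on both knock-out thymus arrays. Xbp1 differed by -0.42 in p53-/- and by 0.12 in p66-/-, and the latter became -0.59 with repeated quantile normalization and -0.49 with cyclic loess. Below WT were 9 of 10 genes in p66-/- thymus (51.7% of all genes) and 10 of 10 in p53-/- thymus (50.6%). A difference of at least 2-fold downwards was reached by 2 of 10 in p66-/- (4.78%) and by 4 of 10 in p53-/- (4.81%). None was 2-fold or more higher in p66-/- or p53-/- thymus, beside 12.7% and 8.89% of all genes. Creld2 in p66-/-, at 8.52 against 9.52, fell just short of 2-fold. The genes at or above the median signal had medians of 0.32 and 0.19 in p66-/- and p53-/- thymus.

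The knock-outs were next compared with each other. This contrast does not use the WT signal, although the WT arrays enter the estimate of the spread. The knock-out values were known when the 10 genes were chosen. For these genes the p-values and intervals are therefore descriptions, and nothing is read from their count under 0.05. The limma model held genotype and tissue for the 12 arrays, with 6 degrees of freedom left for the residual, and Benjamini-Hochberg adjustment covered all 18193 genes. No gene passed an adjusted p of 0.05 (0% of all genes), and 749 genes (4.12%) had an unadjusted p under 0.05, among them 3 of the 10, Hspa5, Dnajb9 and Xbp1. By its brightest probe set, Hspa5 was lower in p53-/- than in p66-/- in 4 of 4 tissues, with differences of -0.30 in liver, -0.86 in lung, -0.43 in heart and -0.55 in thymus. Its mean difference was -0.54 ± 0.14 (SE) with a 95% interval of -0.85 to -0.22, and the adjusted p from limma was 0.94. The second Hspa5 probe set was lower in p53-/- in all 4 tissues too. The third was lower in liver (9.47 against 9.62) but higher in lung (10.12 against 9.95), heart (10.31 against 9.84) and thymus (10.75 against 10.17). Dnajb9 was lower in p53-/- in 4 of 4 tissues too, with -0.02 in heart, -0.79 to -0.49 elsewhere and a mean of -0.51 ± 0.16 (SE, limma adjusted p = 0.94). Xbp1 was lower in 3 of 4, with a mean of -0.37 ± 0.16 (SE, limma adjusted p = 0.94). For none of the 10 genes was a difference between the knock-outs established, and the adjusted p in limma lay between 0.937 and 0.999.

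Of the other genes, Dnajc3 (by its brightest probe set) and Creld2 were lower in p53-/- in 4 of 4 tissues, with means of -0.31 and -0.27 and intervals of -0.64 to 0.01 and -0.58 to 0.05. Hyou1 and Pdia4 had means of -0.15 and -0.17 and were lower in 3 of 4. Ficd had a mean near 0 with an interval of -0.31 to 0.32, Herpud1 a mean of 0.13 with -0.49 to 0.75, and Sdf2l1 of 0.25 with -0.24 to 0.74. Differences of these sizes in either direction therefore remained possible. The difference in Hspa5 was largest in lung, where the hepatocyte markers and the 18S signal also differed between the knock-out arrays. Without the p53-/- lung array its mean was -0.43. In thymus the 18S signal, the cardiomyocyte markers and Scgb1a1 differed between the knock-out arrays too. Without the p53-/- thymus array the mean of Hspa5 was -0.50. In heart, lung and liver alone this mean was -0.53 with adjusted p = 0.56 in limma. Over all alternatives the adjusted p of Hspa5 and Dnajb9 lay between 0.25 and 0.99998, with the lowest value when the WT thymus array was left out of the estimate of the spread.

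**Figure D4:**
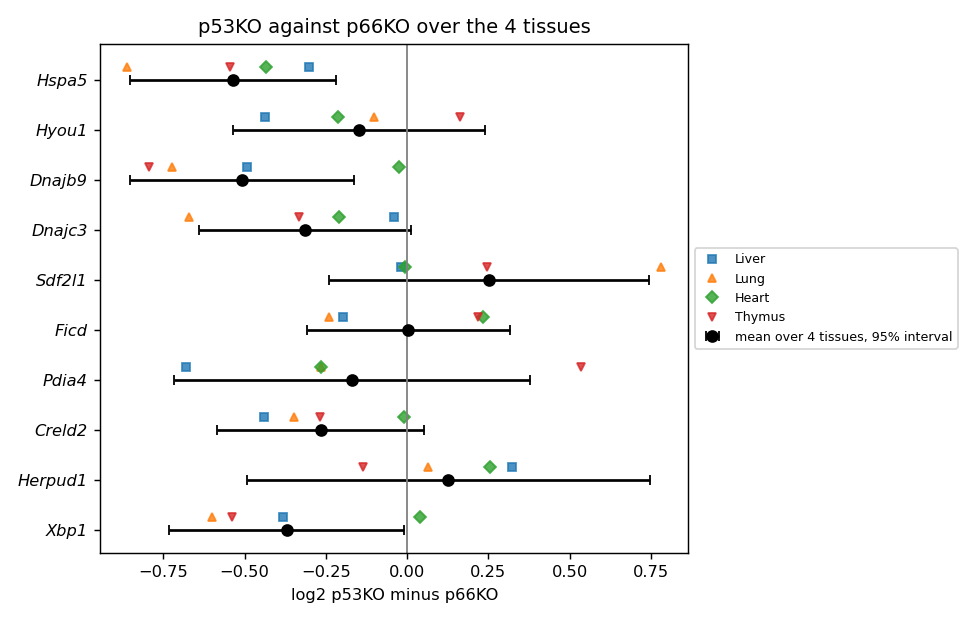
Log2 p53KO minus p66KO (x axis) of each gene (y axis), as 1 coloured point per tissue and, in black, the mean over 4 tissues with its 95% interval from limma. The intervals of Hspa5, Dnajb9 and Xbp1 lie left of 0 before adjustment over all genes, and none passes after it. With repeated quantile normalization or cyclic loess these intervals include 0. The lung and heart points of Pdia4 coincide at -0.27.

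Probe sets of a gene did not always give the same direction. Of the 23 probe sets, 10 were below WT on all 6 knock-out arrays outside thymus and 8 on 3 or fewer of them. The second probe set of Hspa5 followed the brightest, with -0.44 and -0.81 in p66-/- and p53-/- liver, -0.19 and -1.25 in lung, and -0.48 and -0.88 in heart. The third had values from -0.32 to 0.40 outside thymus and stood above WT on both knock-out lung arrays and in p53-/- heart. Both Herpud1 probe sets were below WT on all 8 knock-out arrays, and in thymus the dimmer read -2.42 and -2.51. Of the 4 Xbp1 probe sets, all were below WT in heart, from -1.64 to -0.66, but the third was above WT by 0.05 in p66-/- liver and by 0.17 and 0.14 in p66-/- and p53-/- lung, and the first by 0.01 in p66-/- liver. Of the 5 Dnajc3 probe sets, only the brightest was below WT on all 6 arrays outside thymus, 2 others were on 5, the second on 3, with 0.38 and 0.37 in lung, and the fifth, a dim one, on 2. Those of Hyou1 disagreed, since the first lay above WT by 0.25 to 0.75 on all 6 arrays outside thymus, including liver, where the brightest was below WT. The second probe set of Pdia4, with signals between 5.63 and 6.51, lay above WT on those 6 arrays by 0.03 to 0.73, against -1.60 of the brightest in p53-/- liver. Creld2, Ficd, Dnajb9 and Sdf2l1 have 1 probe set each, so that no second reading exists for them here, and 7 of the 23 end in _s_at or _x_at and may bind related transcripts.

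**Figure D5:**
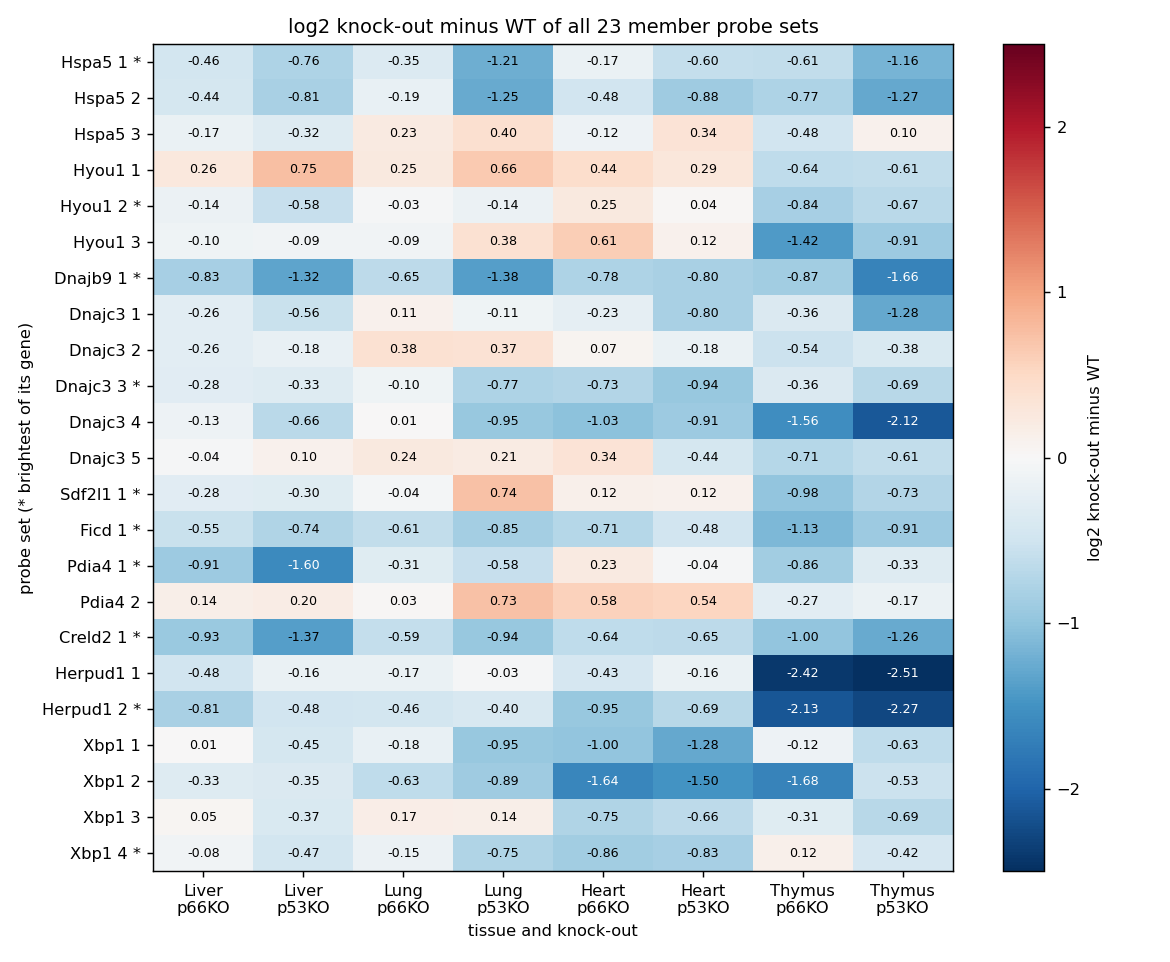
Log2 knock-out minus WT of all 23 probe sets (rows, numbered within a gene, the brightest of each gene starred) in each tissue and knock-out (columns), printed in the cells and coloured blue below and red above WT. Rows of Hspa5 1 and 2, Dnajb9 and Creld2 are blue throughout (Hspa5 1 in p66KO heart turns above WT with 2 of the other scalings), while Hyou1 1 and Pdia4 2 are red in liver, lung and heart and blue in thymus.

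The wider set of endoplasmic reticulum genes stood closer to WT than the 10 genes. Of 92 such genes in 5 lists that hold none of the 10, 90 were measured. Their median difference in p66-/- and p53-/- was -0.15 and -0.25 in liver, -0.05 and -0.23 in lung, -0.36 and -0.29 in heart, and -0.17 and -0.30 in thymus. These medians stayed below 0 with each other scaling but came as near to it as -0.01 in p53-/- lung with repeated quantile normalization. In liver 70 and 76 of 90 were below WT (46.6% and 49.9% of all genes), and 1 and 0 were 2-fold or more lower (0.302% and 0.418%). In lung 51 and 65 were below WT (48.5% and 43.3%), with 0 and 7 at 2-fold (0.313% and 4.14%). In heart 80 and 76 were (50.4% and 47.3%), with 4 and 4 at 2-fold (1.67% and 2.08%). Of the brighter genes, 53.9% and 60% were below WT in liver, 47.2% and 57.7% in lung, and 69.6% and 64.8% in heart. In thymus 15 and 20 were 2-fold or more lower (4.78% and 4.81% of all genes) and 2 and 2 higher (12.7% and 8.89%). These lists were written with results on the unfolded protein response of these arrays known, and no test of a list was made.

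The sensors stood close to WT outside thymus, with list medians between -0.34 and -0.06. Ern1, which encodes IRE1, differed by -0.83 in p53-/- lung and by -0.40 to 0.06 in the other comparisons outside thymus, and Eif2ak3, which encodes PERK, by -0.29 to -0.06. Atf6 lay between -0.37 and -0.19. In thymus Atf6 differed by -1.42 and -1.03 and Ern1 by -0.55 and -1.77. Among stress factors and their targets, Ddit4, which restrains mTOR signalling, was -1.20 and -1.26 from WT in heart, and Atf5, a factor of the PERK branch, -1.01 and -0.74. Asns, which makes asparagine, differed by -1.08 and -0.89 in liver and by -3.10 and -3.12 in thymus.

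Among folding factors Manf, a small secreted stress protein, was below WT in all 8 comparisons, from -0.98 in p53-/- heart to -0.26 in p66-/- liver. Cnpy2 went the other way, standing 0.29 to 0.85 above WT in the 6 comparisons outside thymus. Creld1, a paralogue of Creld2, lay between -0.77 and -0.09 there, and its p66-/- liver value became 0.02 with repeated quantile normalization. Of the degradation genes, the ubiquitin ligase Syvn1 and its partner Sel1l lay between -1.17 and -0.19 outside thymus, and Herpud2, a paralogue of Herpud1, between -1.30 and -0.10. The degradation list had medians of -0.42 and -0.59 in heart and -0.14 and -0.20 in liver. With repeated quantile normalization these became -0.19 and -0.39 in heart and -0.03 and -0.02 in liver. For entry into the reticulum, Sec61a1, the channel subunit, was -0.44 and -0.55 from WT in liver, -0.27 and -0.9995 in lung and -0.91 and -0.59 in heart. The signal peptidase subunit Sec11c stood at -0.37 and -0.63, -0.30 and -1.33, and -1.19 and -1.17 in the same comparisons, and the translocation factor Tram1 between -0.90 and -0.19.

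Finally, the genes were compared by pattern over the 9 arrays of liver, lung and heart, after each tissue was centred on its mean. The points share the WT array of a tissue and its scaling, so these correlations are descriptions. Creld2, Dnajb9 and Ficd followed the mean of the other 9 genes most closely, with Pearson r = 0.99, 0.98 and 0.94 over 9 arrays. Hspa5, Xbp1, Dnajc3, Pdia4 and Herpud1 had r between 0.72 and 0.86 over 9 arrays, whereas Hyou1 had 0.53 and Sdf2l1 -0.32. Of 9089 other genes at or above the median signal, those most like the mean of the 10 were Ldah, Ptprd, Apmap, Trim25, Dnajb4, Rest, Baz1b and Socs3, with r from 0.98 to 0.99 over 9 arrays. Dnajb4, a cytosolic J-domain cochaperone, differed from WT by -0.87 and -0.96 in liver, -0.56 and -0.87 in lung, and -0.70 and -0.81 in heart. Socs3, an inhibitor of cytokine signalling, differed by -1.35 and -1.46, -0.55 and -1.36, and -0.87 and -1.17 in the same order. None of the 8 belongs to the lists of endoplasmic reticulum or heat shock genes.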

How the data were processed

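Groups were taken from the sample labels. The authors deposited RMA values from Partek 6.5, that is log2 signals after background correction, quantile normalization and median polish, and no further normalization was applied. The study's methods name pooled RNA of thymus, liver and heart, and the labels also give lung. The array holds 45101 probe sets, of which 64 are controls, 34945 carried 1 gene symbol, 932 several and 9160 none. Those with 1 symbol gave 18193 genes, and the probe set of highest mean log2 stood for a gene. Within a tissue, the WT value was subtracted from the knock-out value, and 2-fold (1 on the log2 scale) was the threshold. No test against WT was made, because these contrasts took part in the choice of the genes.

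Between the knock-outs, limma 3.58.1 in R 4.3.3 (lmFit and eBayes, tissue as fixed block, Benjamini-Hochberg over all genes, threshold 0.05) was used, and checked on simulated data. Whether pools of different organs came from the same mice is not stated, and the model takes them as independent. Python 3.11.15 (pandas 2.3.3, matplotlib 3.10.9) served for the rest. Members and lists were chosen with earlier results of these data known. Named genes were the 10 members, the 3 genes of each endoplasmic reticulum list with the largest mean difference from WT outside thymus, the 3 brightest genes of a marker list in the tissue where it is discussed, and the 8 genes most like the members. Alternatives were thresholds of 1.5-fold and 3-fold, repeated quantile normalization, median centring, cyclic loess, the mean of all probe sets, brighter genes alone, each array left out, no tissue block, and no thymus. Leaving out probe sets ending in _s_at or _x_at and counting unadjusted p-values were added after the data were seen.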

Additional observations from a re-analysis of the deposited data

Results flagged for a closer look

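Hyou1 and Sdf2l1 stood apart because both knock-out values were above WT in heart but below WT in other tissues, liver, lung and thymus for Hyou1 and liver and thymus for Sdf2l1, whose lung differences were -0.04 in p66-/- and 0.74 in p53-/-. For Hyou1, the mean difference of the knock-outs from WT in heart exceeded that in liver by 0.50, that in lung by 0.23 and that in thymus by 0.90 on the log2 scale. For Sdf2l1, it exceeded that in liver by 0.40 and that in thymus by 0.97. With 1 array per group these differences between tissues were not tested, and they rest on heart values of at most 0.25. The p53-/- heart value of Hyou1 turned below WT with arrays centred on their medians, its p53-/- lung value turned above WT with repeated quantile normalization and with cyclic loess, and both heart values of Sdf2l1 turned below WT with cyclic loess.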

How the results depend on the processing

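Under other scalings or probe sets, the 40 recomputed median differences of the 10 genes from WT all stayed below 0 (-1.22 to -0.17). Of these, 3 moved by at least 0.239, the median SD of the limma fit. They went to -0.43 in p53-/- lung with the mean of all probe sets and to -1.13 in p66-/- thymus with cyclic loess. With repeated quantile normalization, the median in p53-/- thymus went to -1.22. The median in p66-/- heart came nearer to 0 by just under 0.239 with that scaling and with cyclic loess, and is not counted. Counts of genes at 2-fold moved more. At 1.5-fold, 4 and 5 of the 10 were lower in p66-/- and p53-/- liver (1.81% and 2.9% of all genes), 3 and 6 in lung (2.08% and 11.8%, with 1 higher in p53-/-, 6.85%), 6 and 6 in heart (10.1% and 9.21%) and 8 and 8 in thymus (15.3% and 12.7%), and at 3-fold 1 in p53-/- liver (0.126%), 0 in p53-/- lung (1.02%), and 1 and 2 in thymus (1.6% and 1.97%). With the mean of all probe sets 1 was lower in p53-/- lung (2.2%) and 1 and 1 in heart (0.885% and 1.09%), with median centring 1 and 1 in heart (2.77% and 2.96%) and 1 in p66-/- thymus (3.41%), with repeated quantile normalization 7 and 7 in thymus (6.79% and 6.63%), with cyclic loess 6 in p66-/- thymus (5.6%), and among brighter genes 1 in p66-/- thymus (5.21%). Of the 90 other endoplasmic reticulum genes, at 1.5-fold 3 and 9 were lower in liver (1.81% and 2.9% of all genes) and 2 and 17 in lung (2.08% and 11.8%). In heart 15 and 19 were (10.1% and 9.21%), and 24 in p66-/- thymus (15.3%). Repeated quantile normalization gave 0 in p66-/- liver (0.236%), 3 in p53-/- lung (3.12%), 1 and 2 in heart (1.53% and 1.95%) and 26 in p66-/- thymus (6.79%). Cyclic loess gave 4 in p53-/- lung (4.8%) and 0 and 1 in heart (1.2% and 1.79%), and median centring 8 in p53-/- heart (2.96%). The centring shifted the median of all genes by -0.11 in p53-/- lung and p66-/- heart and by 0.14 in p66-/- thymus. The cause of these moves was not tested.

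Leaving out 1 array at a time, 3 to 7 genes lay above lung, and above both lung and heart, on all liver arrays, and 9 to 10 above heart, the 7 without the WT lung array (25.9% and 13.3% of all genes). Between the knock-outs limma made 0 calls under all 19 alternatives, with 58 to 2353 genes at an unadjusted p under 0.05, against 749 as reported. The direction turned for genes near 0: Hyou1 to 0.058 and Pdia4 to 0.017 with the mean of all probe sets, Ficd to -0.068 without thymus, -0.0022 with repeated quantile normalization, -0.037 with median centring and -0.073 with cyclic loess. Without single arrays Ficd ranged from -0.095 to 0.070, Pdia4 from -0.35 to 0.076 and Herpud1 from -0.0047 to 0.39. Hspa5 stayed between -0.61 and -0.29, Dnajb9 between -0.67 and -0.37 and Xbp1 between -0.54 and -0.20. The 95% intervals of Hspa5, Dnajb9 and Xbp1 all included 0 with repeated quantile normalization and with cyclic loess. The tissue block matches the knock-outs within a tissue, and the 58 came from the fit without it. The labels carry no replicate numbers for a further pairing. Signal over background is not given by the deposited values, so the dim members Sdf2l1 and Ficd cannot be set against a detection limit.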
